A study of Homo sapiens with 15 samples.

Results

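The APOBEC3 genes encode enzymes that turn cytosine into uracil in single-stranded DNA, and UNG encodes the uracil-DNA glycosylase that takes such uracils out again. The genes examined were 6 of the 19775 measured: APOBEC3B, APOBEC3C, APOBEC3D, APOBEC3F, APOBEC3G and UNG. They were chosen by name, and 8 probe sets had 1 of these symbols in the platform annotation. Where a gene had more than 1 probe set, as APOBEC3F and APOBEC3G did with 2 each, the brightest on average over the 15 arrays stood for it. APOBEC3H was not analysed here.

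The arrays, Affymetrix U133 Plus 2.0, measured total RNA from 9 human lymphoid cell lines. Classical Hodgkin lymphoma was the label of L428, L1236, KM-H2 and HDLM2, with 2 arrays each, and of L540Cy and L540, with 1 array each. The other lines were Reh, a B acute lymphoblastic leukemia, and Namalwa, a Burkitt lymphoma, with 2 arrays each, and SU-DHL-4, a B non Hodgkin lymphoma, with 1 array. L540Cy is known from background as a subline of L540, and HDLM2 and L540 are known as T cell derived, the other Hodgkin lines as B cell derived. The labels name no treatment. Duplicate arrays are biological duplicates per the design text, and nothing more is said of how the cultures were kept apart. Each array took RNA from a whole culture, so fewer expressing cells and less RNA per cell cannot be told apart.

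As background, the APOBEC3 proteins restrict retroviruses and mobile elements, and APOBEC3B, which sits in the nucleus, is a known source of C-to-T changes in tumour genomes. In B cells UNG also takes part in antibody class switching. UNG is made in a nuclear and a mitochondrial form from separate start sites, and its nuclear form works at replication forks. In the RefSeq gene table (GRCh38.p14) the 5 APOBEC3 genes follow one another on chromosome 22 in the order APOBEC3B, APOBEC3C, APOBEC3D, APOBEC3F and APOBEC3G. UNG lies on chromosome 12.

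The promoter table from RefSeq (GRCh38.p14) held 1 of the 6 genes, UNG, with 2 windows on the plus strand, shown because UNG was the one member called between a subline and its parent. Capitals mark the 50 bases from the annotated start site, after 250 bases upstream of it. The first window is chr12:109097347-109097646 and the second is chr12:109097922-109098221.
UNG upstream window: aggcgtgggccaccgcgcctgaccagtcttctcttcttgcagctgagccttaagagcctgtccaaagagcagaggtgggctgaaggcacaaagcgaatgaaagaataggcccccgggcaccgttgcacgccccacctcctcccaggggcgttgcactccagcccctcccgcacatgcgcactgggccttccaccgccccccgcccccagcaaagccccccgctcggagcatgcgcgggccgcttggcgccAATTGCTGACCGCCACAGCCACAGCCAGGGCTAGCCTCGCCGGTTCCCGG
UNG downstream window: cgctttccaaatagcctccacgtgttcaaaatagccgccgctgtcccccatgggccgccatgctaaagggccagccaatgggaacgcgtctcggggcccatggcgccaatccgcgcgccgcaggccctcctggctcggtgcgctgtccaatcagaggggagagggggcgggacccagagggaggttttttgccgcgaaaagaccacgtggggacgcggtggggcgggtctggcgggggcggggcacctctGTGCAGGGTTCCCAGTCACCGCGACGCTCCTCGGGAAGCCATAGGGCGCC
Both windows were rich in G and C, at 68% and 68.3%. The letters TTTGAA, searched on both strands, were found once in the downstream window and not in the upstream one, and 15.2% of 35116 promoter windows of the same length held them. Neither window held the letters TTCGAA, found in 1.45% of all windows, nor TATAAA, found in 11.5%. Neither held the NF-kB consensus, found in 5.91%. All motifs were searched on both strands. The files do not tie the probe set of UNG to either start site.

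The 2 arrays labelled Reh differed in genes that mark other lines. In 22 genes that marked SU-DHL-4, by an excess of over 3 log2 on every array but that of Reh replicate 1, the signal of Reh replicate 1 exceeded that of Reh replicate 2 by a median of 4 log2. Another 55 genes marked Reh replicate 2 against the other lines by the same margin, a choice that favours lower values in Reh replicate 1. In them Reh replicate 1 had a median difference of -0.98 log2 from Reh replicate 2. The calls of members that rest on Reh are therefore also given without Reh replicate 1. Namalwa replicate 2 had an upper quartile of 7.30 log2 against 7.59 in replicate 1, and these duplicates had an SD of 0.37 log2. Without Namalwa replicate 2 the class difference of APOBEC3B was 6.16 log2. With any 1 array left out, Reh minus Namalwa ran from 2.49 to 4.22 log2 for APOBEC3B, 1.05 to 1.54 for APOBEC3C and 1.67 to 2.27 for APOBEC3G. Of the defining B cell genes, CD79A averaged 5.94 ± 0.11 log2 in the Hodgkin lines (SD, n = 5) and 12.30 ± 0.38 in the others (SD, n = 3). The Hodgkin marker TNFRSF8, which encodes CD30, averaged 11.01 ± 1.22 and 6.08 ± 0.40 (SD, same n). Over the marker lists, 3 of 6 B cell genes were called lower (CD79A, CD79B at -5.91 and CD22 at -2.68 log2) and 3 of 5 Hodgkin genes higher (TNFRSF8, BATF3 at 6.57 and GATA3 at 6.53 log2). Of 6 T cell genes LCK was called lower (-4.79 log2), and 0 of 6 monocyte genes were called, with CSF1R at 1.02 and CD14 at 0.47 log2. Between the classes 0.759% of all genes were called higher and 0.612% lower, so 0 calls among 6 genes says little.

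APOBEC3B was high in all Hodgkin lines, near the low end of the scale in Namalwa and SU-DHL-4, and in between in Reh. Among the Hodgkin arrays it had 11.40 and 11.53 log2 in L428, 11.32 and 11.16 in L1236, and 10.40 and 10.26 in KM-H2. HDLM2 had 10.76 and 11.16, L540Cy had 10.97 and L540 had 11.55 log2. KM-H2 was the lowest of the Hodgkin lines, with both arrays below all others. Among the other arrays Reh had 6.18 and 7.91 log2, Namalwa 3.90 and 3.48, and SU-DHL-4 3.73. No array of these lines came near a Hodgkin array, and the array labelled Reh replicate 1 lay between Reh replicate 2 and SU-DHL-4.

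**Figure D1:**
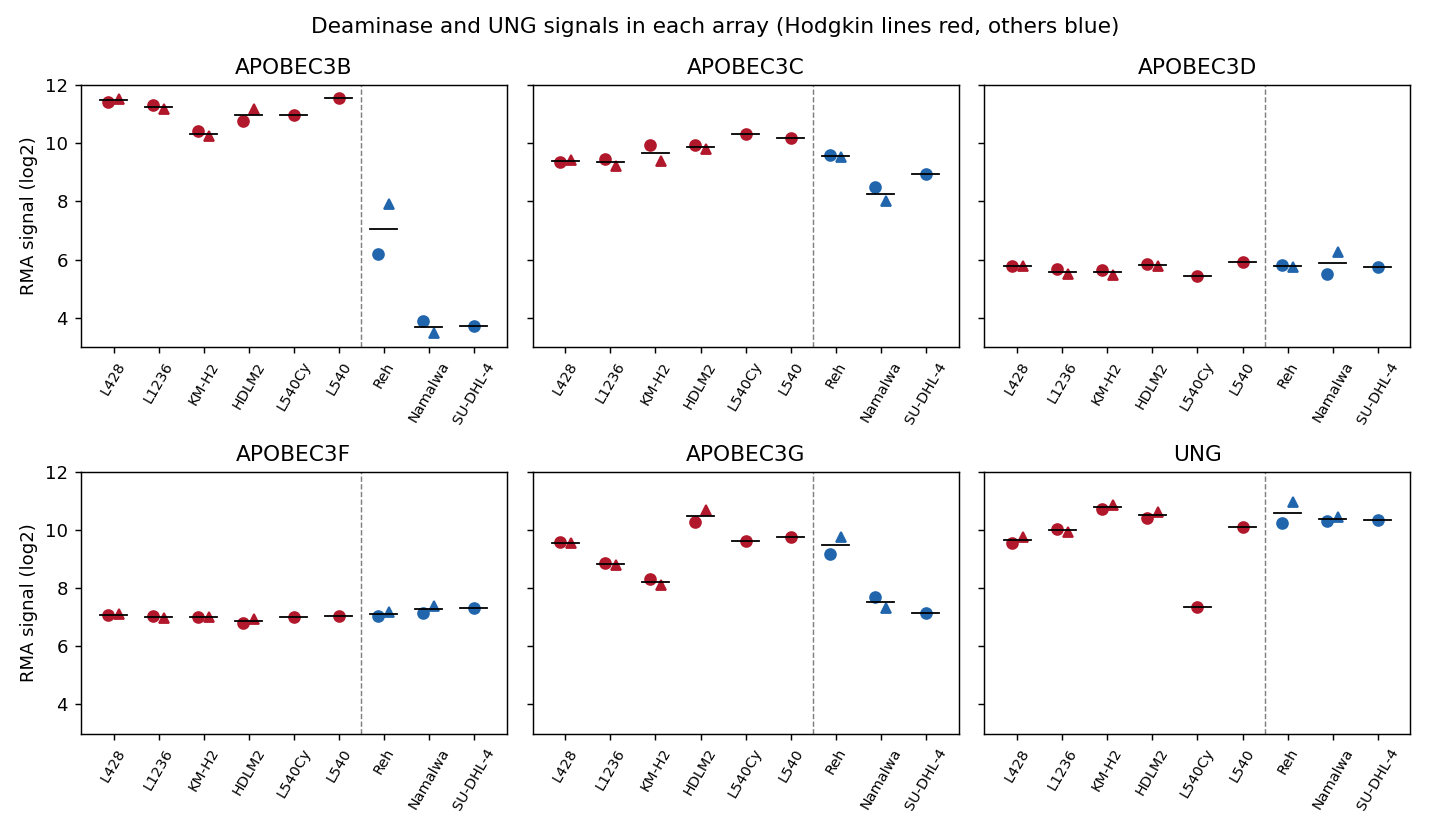
RMA signal (log2) of each gene in each array. Red points are Hodgkin lines and blue points the others, circles are replicate 1 (or the only array), triangles replicate 2, and black lines are line means. APOBEC3B sits above 10 log2 in all Hodgkin arrays and below 8 log2 in all others, and UNG is low in L540Cy alone. Heights are not comparable between genes.

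Between the disease classes, with the line as the replicate and L540 averaged with L540Cy, APOBEC3B averaged 11.05 ± 0.44 log2 in 5 Hodgkin lines (SD) and 4.82 ± 1.93 log2 in 3 non-Hodgkin lines (SD). The difference was 6.23 ± 0.77 log2 (SE, limma adjusted p = 0.0138, 95% interval 4.43 to 8.04). The signals of Namalwa and SU-DHL-4 lay below the array medians and no detection call was used, so the size is one on the RMA scale, which compresses low signals. An exact two-sided permutation of the 8 lines gave p = 0.0179, the smallest this design allows. Without Reh replicate 1 the difference was 5.94 log2 (adjusted p = 0.0414) and without Reh altogether 7.34 log2 (0.000287). The call ended without Namalwa (5.67 log2, adjusted p = 0.0525) and when the T cell derived Hodgkin lines were left out (6.19 log2, 0.0851), and adjusted p over all its alternatives ran from 3.11e-05 to 0.0851.

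APOBEC3B was the 1 member of 6 called higher in the Hodgkin lines, and 0 were called lower. Over all genes 0.759% were called higher and 0.612% lower. Every Hodgkin line lay above every non-Hodgkin line for APOBEC3B, as for 5.17% of all genes. For APOBEC3F every Hodgkin line lay below, as for 5.5% of all genes, but by far less.

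**Figure D2:**
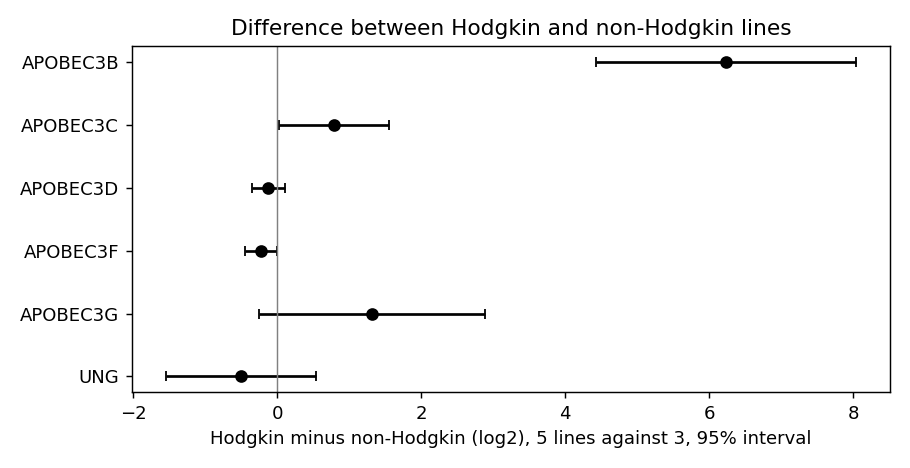
Difference between 5 Hodgkin and 3 non-Hodgkin lines of origin (log2) for each gene, with 95% intervals from the limma fit. APOBEC3B lies at 6.23, and the other genes lie between -0.50 and 1.32.

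APOBEC3C, a deaminase with a single catalytic domain, and APOBEC3G, a restriction factor known for its action on HIV, had higher means in the Hodgkin lines. These differences did not pass the test. APOBEC3C averaged 9.70 ± 0.37 log2 against 8.92 ± 0.65 (SD, 5 and 3 lines), a difference of 0.79 ± 0.32 log2 (SE, limma adjusted p = 0.333). APOBEC3G averaged 9.36 ± 0.87 log2 against 8.04 ± 1.26, a difference of 1.32 ± 0.67 log2 (SE, limma adjusted p = 0.431). For both genes Reh overlapped the Hodgkin lines, and the interval of the APOBEC3G difference ran from -0.25 to 2.89 log2. Without Reh the APOBEC3G difference was 2.04 log2 (adjusted p = 0.21), and with the mean of its probe sets it was 0.66 log2 (0.469).

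Of the members, APOBEC3G had the highest F value among the Hodgkin lines (28.47, limma adjusted p = 0.000185). Of all genes 45.3% passed this test, and APOBEC3G was rank 2611 among them by F. HDLM2 had 10.28 and 10.69 log2, L540Cy 9.63, L540 9.74, and L428 9.58 and 9.55. L1236 had 8.87 and 8.80 log2 and KM-H2 8.31 and 8.12. HDLM2 was thus above all other lines and KM-H2 the lowest Hodgkin line, with no overlap of arrays between the HDLM2, L1236 and KM-H2 levels. Outside the Hodgkin lines Reh had 9.18 and 9.77 log2, Namalwa 7.71 and 7.30, and SU-DHL-4 7.14. Neighbours in the order L540, L540Cy, L428 and Reh were 0.07 to 0.11 log2 apart, less than the 0.25 log2 SD of duplicate arrays for this gene.

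In the fit of all arrays with 1 mean per line, HDLM2 was 1.41 ± 0.18 log2 above the mean of the other Hodgkin lines for APOBEC3G (SE, limma adjusted p = 0.000302). KM-H2 was lower by -1.43 ± 0.18 log2 (limma adjusted p = 0.000247). L1236 was lower by -0.66 log2 (limma adjusted p = 0.0257), a call that ended without either L1236 array (0.136 and 0.182), L428 replicate 1 (0.0515) or KM-H2 replicate 1 (0.0516). Reh exceeded Namalwa by 1.97 ± 0.23 log2 and SU-DHL-4 by 2.33 ± 0.28 log2 (SE, limma adjusted p = 0.000346 and 0.000661). Without Reh replicate 1 these were 2.27 and 2.63 log2. With the mean of both APOBEC3G probe sets the same 5 contrasts remained called at smaller size, with HDLM2 at 0.87, KM-H2 at -0.80, L1236 at -0.38, Reh minus Namalwa at 0.83 and Reh minus SU-DHL-4 at 1.21 log2.

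APOBEC3C had a narrower range. L540Cy and L540 were highest, at 10.31 and 10.16 log2, and HDLM2 (9.95 and 9.81) and KM-H2 (9.94 and 9.39) followed. L428 (9.36 and 9.42) and L1236 (9.44 and 9.23) lay below Reh (9.58 and 9.53). SU-DHL-4, at 8.93, and Namalwa, at 8.5 and 8.02, were the lowest. L540 with its subline was 0.67 ± 0.17 log2 above the other Hodgkin lines (SE, limma adjusted p = 0.0173), a call that ended without L540Cy (0.59 log2, adjusted p = 0.13). Reh exceeded Namalwa by 1.30 ± 0.22 log2 (SE, limma adjusted p = 0.00296), and the 0.62 log2 between Reh and SU-DHL-4 did not pass (0.223). Without Reh replicate 1 these were 1.27 log2 (adjusted p = 0.0113) and 0.60 log2 (0.327).

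Within the non-Hodgkin lines APOBEC3B was 3.35 ± 0.44 log2 higher in Reh than in Namalwa and 3.32 ± 0.53 log2 higher in Reh than in SU-DHL-4 (SE, limma adjusted p = 0.000654 and 0.00412). With Reh replicate 2 alone these differences were 4.22 and 4.18 log2 (adjusted p = 3.24e-06 and 8.64e-06). SU-DHL-4 and Namalwa differed by 0.04 log2 (adjusted p = 0.986). Among the Hodgkin lines APOBEC3B did not pass the F test (limma adjusted p = 0.287), where KM-H2 stood -0.90 ± 0.35 log2 from the others (SE, adjusted p = 0.0867). Reh replicates differed by 1.73 log2 for this gene, and without either of them the F test passed (adjusted p = 0.00606) and KM-H2 was called lower (0.00177), as L428 was called higher by 0.51 log2 (0.037).

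APOBEC3D and APOBEC3F showed little range. APOBEC3D lay between 5.45 and 6.25 log2 in all 15 arrays, close to the array medians of 5.50 to 5.56, and APOBEC3F between 6.80 and 7.38 log2. APOBEC3D differed between the classes by -0.12 ± 0.10 log2 and APOBEC3F by -0.22 ± 0.09 log2 (SE, limma adjusted p = 0.638 and 0.343). The exact permutation p of APOBEC3F was 0.0179, but its other probe set gave 0.04 log2, so its sign depends on the probe set. Neither gene passed in any of 9 contrasts between single lines, where APOBEC3D differed by -0.46 to 0.17 log2 and APOBEC3F by -0.19 to 0.11 log2.

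The probe sets of APOBEC3F and APOBEC3G did not move together within a gene. APOBEC3B, APOBEC3C and UNG had only 1 probe set each, ending in _s_at or _x_at, so no second one could be set beside it. For APOBEC3G the probe set used ranged from 7.14 to 10.69 log2, and its other one from 6.44 to 6.96 log2, with a class difference of -0.01 log2. For APOBEC3F the other probe set ranged from 5.70 to 6.63 log2. A further probe set is annotated to both genes and was used for neither. It ranged from 4.93 to 8.79 log2, and over the 9 line means it had r = 0.99 with APOBEC3G and r = -0.80 with APOBEC3F, as a description. The probe set annotated jointly to APOBEC3A and APOBEC3A_B stayed between 3.45 and 4.59 log2, and was 4.59 log2 in L540Cy.

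**Figure D3:**
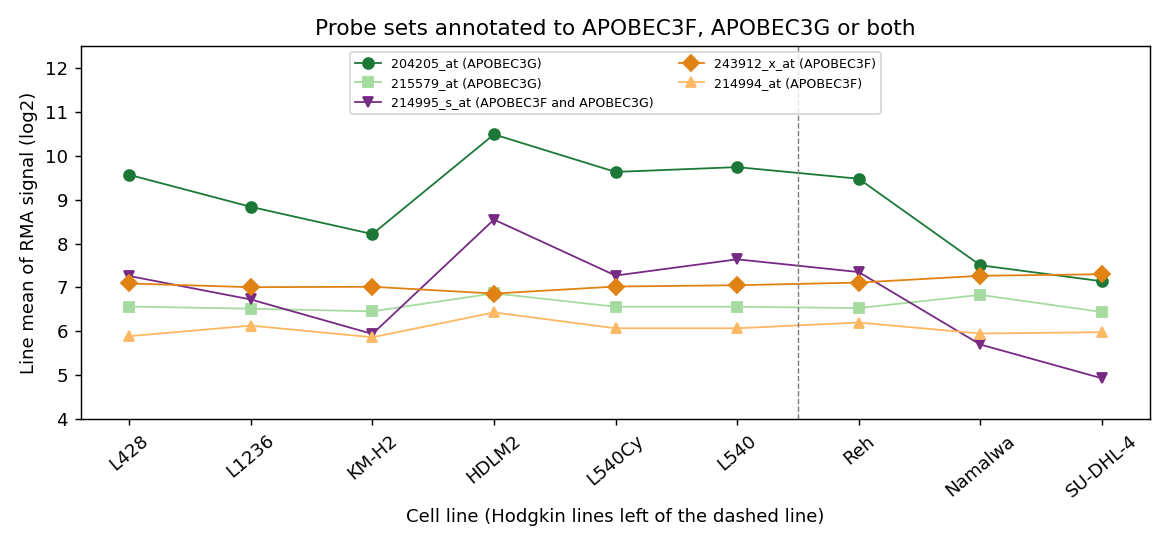
Line means (log2) of the 5 probe sets annotated to APOBEC3F, to APOBEC3G or to both, by cell line. The probe set annotated to both genes has r = 0.99 with the brighter one of APOBEC3G over the 9 lines.

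UNG was high in every line but L540Cy. KM-H2 had 10.71 and 10.87 log2, HDLM2 10.41 and 10.60, L1236 10.04 and 9.92, and L428 9.55 and 9.77. Reh had 10.22 and 10.96 log2, Namalwa 10.32 and 10.44, and SU-DHL-4 10.33. L540Cy had 7.34 log2, against 10.09 log2 in its parent L540. The array of L540Cy was over 2 log2 below the lowest other array, and the other lines overlapped across the classes.

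L540Cy was -2.75 ± 0.32 log2 below L540 for UNG (SE from the 6 lines with 2 arrays, limma adjusted p = 0.00332), with 1 array each. It was rank 53 among the falls of all genes, and adjusted p stayed between 0.000392 and 0.0101 over the alternatives of this contrast. UNG was the 1 of 6 members called there, and it was lower. Of all genes 0.845% were called lower and 0.642% higher. The other 5 members differed by -0.58 to 0.15 log2 between L540Cy and L540 and did not pass, with APOBEC3B at -0.58 ± 0.62 log2 (SE, adjusted p = 0.958).

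The class difference of UNG was -0.50 ± 0.44 log2 (SE, limma adjusted p = 0.654), at 9.93 ± 0.81 log2 in the Hodgkin lines against 10.43 ± 0.14 in the others (SD, 5 and 3 lines), and -0.23 log2 without L540Cy. Among the Hodgkin lines KM-H2 was 1.07 ± 0.18 log2 above the others and HDLM2 0.72 ± 0.18 log2 (SE, limma adjusted p = 0.00134 and 0.0137). L540 with its subline stood -1.52 ± 0.18 log2 below (limma adjusted p = 0.000175). Without L540Cy, L540 stood at -0.15 log2 (adjusted p = 0.816), HDLM2 at 0.38 log2 (0.189), KM-H2 at 0.73 log2 (0.014), and L428 at -0.68 log2 (0.0232). The call of HDLM2 also ended without either of its arrays (0.0563 and 0.139).

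Genes beside UNG on chromosome 12 were looked at after the value in L540Cy was seen. Of the 8 measured protein-coding genes on each side, 0 were called between L540Cy and L540, and they differed by -0.33 (TMEM119) to 1.10 log2 (USP30). In this contrast 1.49% of all genes were called, so 0 calls among so few genes says little. TMEM119, CORO1C, DAO, SVOP and MYO1H lay below the array median of 5.54 log2 in L540, at 4.08 (MYO1H) to 5.19 log2 (CORO1C). A fall in these genes could hardly show. The nearest neighbours ALKBH2, a DNA repair demethylase, and ACACB, an acetyl-CoA carboxylase, differed by -0.11 and -0.19 log2. ALKBH2 had 9.06 log2 in L540Cy and 9.17 log2 in L540.

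**Figure D4:**
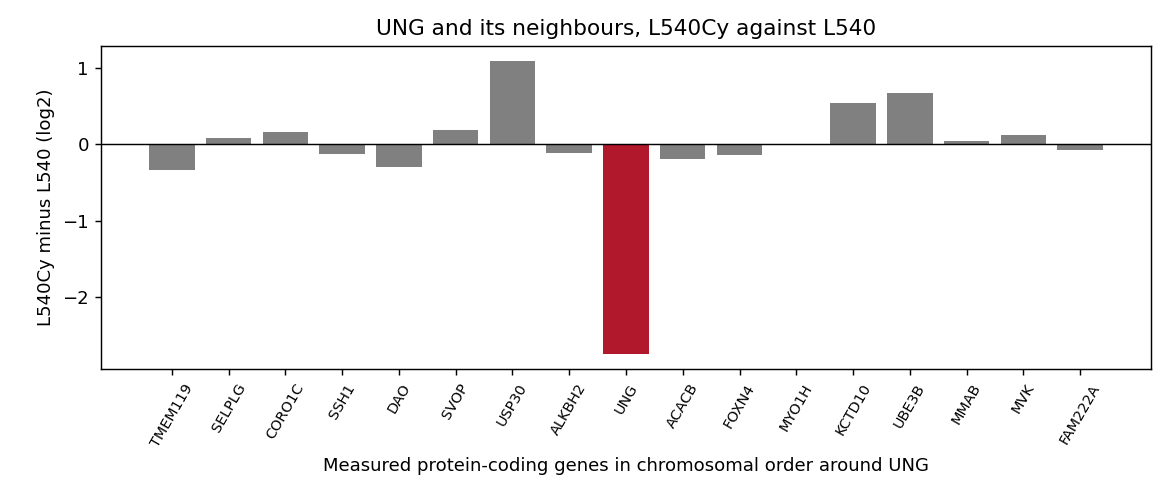
L540Cy minus L540 (log2, 1 array each) for UNG (red) and the 8 measured protein-coding genes on each side (grey), in chromosomal order. UNG is at -2.75, and the neighbours lie between -0.33 and 1.10.

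The difference was also read in other enzymes that remove uracil or act after it. SMUG1 and TDG, further uracil and thymine glycosylases, differed by 0.15 and 0.00 log2 and MBD4 by -0.29 log2, 3 genes that were not called and were picked after their values were seen. In the list of 20 measured base excision repair genes, FEN1, the flap endonuclease, was lower by -1.42 log2 (limma adjusted p = 0.0248) and 0 were higher, with a list median of -0.34 log2 against -0.02 over all genes. In the nucleotide pool list TK1 (thymidine kinase) and CTPS1 (CTP synthase) were lower by -1.44 and -1.25 log2, 2 of 13, and in the list of class switch and end joining genes H2AX by -1.47 log2, 1 of 25. Of 14 proliferation genes CCNA2 (-1.89 log2) and CCNB2 (-1.16 log2) were lower and 0 higher, with a median of -0.61 log2. Beside these counts, 0.845% of all genes were called lower and 0.642% higher. The part of lower proliferation gene signals in the UNG difference was not tested.

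**Figure D5:**
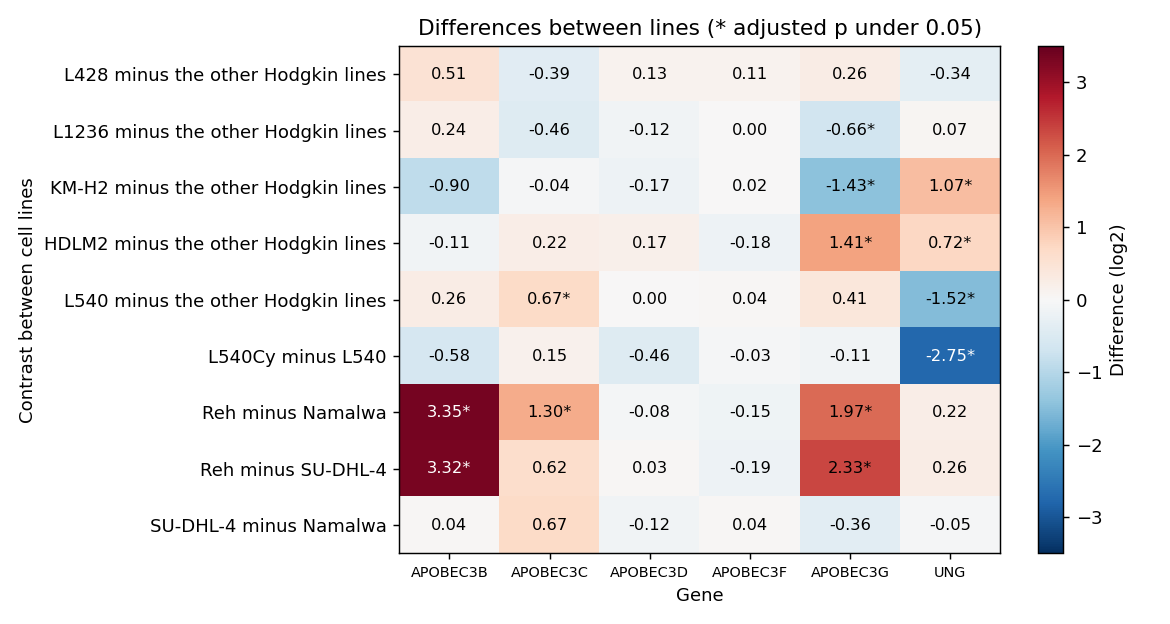
Differences between cell lines (log2) for the 6 genes in 9 contrasts, from the fit with 1 mean per line, where an asterisk marks an adjusted p under 0.05 over all genes. UNG is lowest at -2.75 in L540Cy minus L540, and APOBEC3B highest at 3.35 in Reh minus Namalwa.

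Over the line contrasts 13 of 54 member values were called, 5 of them for APOBEC3G, 4 for UNG, 2 each for APOBEC3B and APOBEC3C, and 0 for APOBEC3D and APOBEC3F. Among the 5 Hodgkin lines of origin 3 of 6 members passed the F test, APOBEC3G, UNG and APOBEC3C, against 45.3% of all genes. Against the other Hodgkin lines, L428 had 23% of all genes called (10.7% higher, 12.2% lower), L1236 23.1% (12.9% and 10.1%) and KM-H2 27.1% (14.1% and 12.9%). HDLM2 had 25.1% (12.4% higher, 12.7% lower) and L540 24.1% (10.3% and 13.8%). Among the 3 non-Hodgkin lines 3 of 6 passed, APOBEC3B, APOBEC3G and APOBEC3C, against 19.2% of all genes. Each of these 3 passed without Reh replicate 1 too (limma adjusted p = 4.81e-06, 0.00015 and 0.0199). Reh minus Namalwa had 15.9% called (10.1% higher, 5.88% lower), Reh minus SU-DHL-4 7.89% (5.56% and 2.33%), SU-DHL-4 minus Namalwa 9.77% (5.52% and 4.26%) and L540Cy minus L540 1.49%. The F test call of APOBEC3C among the Hodgkin lines (adjusted p = 0.0281) ended without L540Cy (0.0932), any array of L428 or L1236, or HDLM2 replicate 1 (0.0526 to 0.0798).

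The 9 line means include a subline and its parent, so they are not all independent. Across them APOBEC3B had r = 0.79 with APOBEC3C and r = 0.77 with APOBEC3G. APOBEC3C and APOBEC3G had r = 0.77 with each other. The probe set used for APOBEC3F ran the other way, with r = -0.85, -0.73 and -0.82 to APOBEC3B, APOBEC3C and APOBEC3G. Its SD over the 9 lines was 0.13 log2, against 0.08 log2 between duplicate arrays. The other APOBEC3F probe set had r = 0.63 with APOBEC3G, so the sign depends on the probe set. Over the 6 Hodgkin lines alone the first 3 pairs had r = -0.03, 0.50 and 0.43, and those of APOBEC3F 0.36, -0.14 and -0.44. On chromosome 22 the measured genes next to the cluster, CBX6 on one side and CBX7 on the other, both Polycomb proteins, differed between the classes by 0.65 and 1.37 log2 without passing (limma adjusted p = 0.392 and 0.341).

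The genes most like APOBEC3B over the 9 lines, among 2776 with an SD of at least 1 log2, were MAML2 and ATF3 (r = 0.984 each), RHOC (0.974), and ELL2 and EMP3 (0.973 each). MAML2, a NOTCH coactivator, averaged 9.92 log2 in the Hodgkin lines, 7.23 in Reh, 3.79 in Namalwa and 3.44 in SU-DHL-4. The choice by likeness to APOBEC3B favours this order, with Reh above both others. For APOBEC3G the most like were C1orf21 (r = 0.955), NFIL3 (0.946) and IRF2 (0.94), and for APOBEC3C they were ZIC2 (0.937), DUSP16 and DENND1B (0.93 each). For UNG they were WDR11 (r = 0.904), ARMCX6 (0.903) and CYB5R1 (0.889). WDR11 had 3.57 log2 in L540Cy against 7.53 in L540, ARMCX6 5.82 against 10.64 and CYB5R1 4.33 against 6.39, a difference that the choice by likeness to UNG favours. For APOBEC3D and APOBEC3F, whose signals hardly varied, the closest were RAB4A, SKAP2 and CRIP1 (0.802 to 0.704) and DANCR, STS and PRDM15 (0.907 to 0.901).

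The wider pathway showed few class differences. No base excision repair gene passed among 20 (median -0.25 log2), where RFC1 had -0.87 (limma adjusted p = 0.0742) and OGG1 -0.74 log2. None passed among 13 nucleotide pool genes, where DCK had -1.37 and RRM2B -1.18 log2, or among 14 genes of mismatch repair and translesion synthesis, where EXO1 had 1.06 and POLK 0.99 log2. In the list of class switch and end joining genes YWHAQ, a 14-3-3 protein, rose by 0.54 ± 0.09 log2 (SE, limma adjusted p = 0.0407), 1 of 25. In the list of other family genes 3 were measured, APOBEC1, APOBEC4 and the cofactor gene A1CF, and they differed by -0.18 to 0.04 log2, 0 of 3 called, and of 6 adenosine deaminases 0 passed, with ADAR at 0.37 and ADAT3 at 0.17 log2. Over all genes the median difference was -0.02 log2 and 1.37% were called.

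Among 17 retrovirus restriction factors IFITM1, which blocks virus entry, rose by 4.54 ± 0.80 log2 (SE, limma adjusted p = 0.0486) and 0 were called lower. The lowest values there, not called, were TRIM22 at -3.65, SERINC5 at -2.52 and RNASEH2B at -2.36 log2 (adjusted p = 0.316, 0.139 and 0.0674). Of 19 factors reported at APOBEC3B in other cells, NFKB2, the precursor of the NF-kB subunit p52, rose by 2.90 ± 0.30 log2 (SE, limma adjusted p = 0.00673), at 9.84 ± 0.55 against 6.94 ± 0.07 log2 (SD, 5 and 3 lines), and 0 were called lower. In the F test among the non-Hodgkin lines NFKB2 had F = 0.07 and APOBEC3B F = 35.15. Whether NFKB2 and APOBEC3B are linked was not tested. None of 14 interferon response genes passed (median 1.01 log2), where IFI44L had 2.61 and IFIT2 2.4 log2. None of 14 proliferation genes passed either (median -0.25 log2), where MCM5 had -0.92 (adjusted p = 0.06) and PLK1 -0.76 log2. Beside these counts, 0.759% of all genes were called higher and 0.612% lower, so 0 calls in lists of this length says little.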

How the data were processed

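Each array's log2 signals came from the authors, who used RMA (robust multi-array average) per the submitters' processing notes. Its software, version and settings are not stated there. RMA compresses low signals, so differences against a dim group are understated, and no detection call was used. From 54675 probe sets, 62 controls were dropped, and 41091 with a single platform symbol gave 19775 genes. Tests used limma 3.58.1 (lmFit, eBayes) under R 4.3.3. They were two-sided, and p-values were adjusted by Benjamini-Hochberg across all genes. "Called" means an adjusted p under 0.05. Classes were compared over means of 5 and 3 lines of origin, and single lines in a fit of 15 arrays with 6 residual degrees of freedom. That fit takes the spread of the duplicated lines for lines with 1 array. The number of arrays limits the precision. The members and gene lists were chosen with earlier results of these data known. From each list, up to 3 called genes in each direction are named, or otherwise the 2 with the largest difference. Likeness is Pearson r over 9 line means. The fits were tested on simulated data.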

Additional observations from a re-analysis of the deposited data

Results flagged for a closer look

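Among the 6 Hodgkin cell lines, each gene's highest and lowest line was set against the rest, and a gap to the nearest line past Dixon's critical share of the whole range was marked. Of 6 genes 2 were marked. Chance marks about 1 in 20 where lines are independent, which L540 and its subline L540Cy are not, so no excess can be read from this. UNG in L540Cy, at 7.34 log2, stood 0.673 of the range below the next line. APOBEC3F in HDLM2, at 6.86 log2, stood 0.627 of the range below the next line, within a span of signals that hardly varied.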

How the results depend on the processing

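Of 1328 recomputed values of the 6 genes, 1271 kept their direction and side of the threshold, 17 lost a call, 10 gained one and 30 changed sign. None of those that changed sign was called in the main analysis. F values have no direction, so only their side of the threshold was compared. The gains include APOBEC3F between the classes by its exact permutation p of 0.0179, which is unadjusted. The 271 genes called between the classes became 424 with L540 and L540Cy as 2 lines, 176 without the T cell derived Hodgkin lines, 1074 with 15 arrays and the line as a random block, and 68 when a difference of at least 1 log2 was asked for. The replicate numbers are not known to pair the samples: deviations of same-numbered arrays correlated at -0.07 to 0.36 over 15 pairs of lines, 10 of them over 0.1. With 12 numbered arrays and the line as a random block, 571 genes were called with the replicate block and 691 with the number left out, and for Reh minus Namalwa 3573 and 3152. APOBEC3B was called in each of these.

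Leaving out an array or a line, the class count ran from 147 to 399. Leaving out an array, counts ran from 2311 to 5117 for L428 (4545), 2453 to 5110 for L1236 (4564), 3304 to 5916 for KM-H2 (5350), 3209 to 5491 for HDLM2 (4964), 158 to 465 for L540Cy minus L540 (294), 2292 to 4759 for Reh minus Namalwa (3152), 1084 to 2858 for Reh minus SU-DHL-4 (1561) and 1467 to 3104 for SU-DHL-4 minus Namalwa (1933). L540 against the other Hodgkin lines had 2991 calls without L540Cy (4760), an alternative chosen after seeing the data, where UNG in L1236 had -0.28 and APOBEC3D in L540 0.22 log2.

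Sign changes were small. With the mean of all probe sets APOBEC3F had -0.06 in L428, -0.12 in KM-H2 and 0.13 in HDLM2 against the other Hodgkin lines, 0.05 in Reh minus Namalwa and 0.01 in Reh minus SU-DHL-4. Between the classes it had 0.04 with the most variable probe set and without probe sets ending in _s_at or _x_at. APOBEC3B, APOBEC3C and UNG each had only 1 probe set, with such an ending, so they dropped out of the latter setting and were not checked by it. With arrays normalized again APOBEC3F had -0.04 in L1236 and in KM-H2 and -0.11 in SU-DHL-4 minus Namalwa, and APOBEC3D 0.02 in L540 and 0.00 in Reh minus SU-DHL-4. Leaving out an array or line, APOBEC3D ran from -0.24 to 0.01 between the classes, -0.02 to 0.01 in L540, -0.46 to 0.30 in Reh minus Namalwa, 0.00 to 0.07 in Reh minus SU-DHL-4 and -0.50 to 0.26 in SU-DHL-4 minus Namalwa. APOBEC3F ran from -0.03 to 0.04 in L1236 and -0.07 to 0.15 in SU-DHL-4 minus Namalwa, APOBEC3C from -0.32 to 0.23 in KM-H2, and APOBEC3B from -0.32 to 0.09 in HDLM2 and -0.17 to 0.25 in SU-DHL-4 minus Namalwa. UNG ran from -0.15 to 0.58 in Reh minus Namalwa, -0.10 to 0.63 in Reh minus SU-DHL-4 and -0.11 to 0.01 in SU-DHL-4 minus Namalwa. The causes were not tested.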

Other observations

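Of 20 base excision repair genes 16 passed the F test over the Hodgkin lines, against 45.3% of all genes. Other lists had like shares, with 12 of 14 for mismatch repair and translesion synthesis and 11 of 14 for proliferation. The lists ran from 0 of 3 other family genes to 5 of 5 Hodgkin markers. In L540 with its subline 7 of the base excision repair genes were called lower and 1 higher than in the other Hodgkin lines. This was against 13.8% and 10.3% of all genes, with OGG1, the glycosylase for oxidised guanine, at -2.65 log2. L540 and L540Cy entered this contrast with 1 array each, and the list was not counted without L540Cy. Interferon response genes IFI44L and XAF1 were lower in L540Cy than in L540, by -5.50 and -3.22 log2, 2 of 14 called lower and 0 higher, against 0.845% and 0.642% of all genes. The list's median was -2.09 log2 against -0.02 over all genes, and IFIT2 differed by 1.4 log2 without being called.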
